A study of Mus musculus with 6 samples.

Results

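The sirtuin deacylase genes Sirt1 to Sirt7 were examined in open chromatin of mouse kidney, as measured by ATAC-seq, in which a transposase cuts and tags accessible DNA. For each of the 7 genes, every distinct interval of the pooled peak list that overlapped the stretch from 3 kb upstream of the gene start to the gene end was taken (GENCODE M39, mouse genome build GRCm39). This gave 53 intervals of 279569 in the list, at 7 of 21757 protein-coding genes. An interval is a called stretch of open chromatin, and it was given the values of its highest summit, the position of strongest signal within it.

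Nuclei came from the kidney cortex of WT mice, which by the study's methods were littermates with floxed Acly alleles (Acly fl/fl) and no Cre, and of Acly cKO mice, which carried the same Acly fl/fl alleles together with Ksp-Cre. Ksp-Cre uses the Cdh16 promoter and recombines in tubule epithelium, so endothelium, immune cells and stroma of the cortex keep Acly. The labels give all animals the treatment Control, and mice of the injury models were 6 to 8 weeks old, while no age is stated for the ATAC-seq animals in particular. The study asked how loss of ATP-citrate lyase (ACLY) affects chromatin accessibility, and 3 WT libraries (batches 1 and 2) and 3 Acly cKO libraries (batches 4 and 5) were mapped here. Genotype and batch therefore cannot be told apart. By its peak names, the list comes from 1 call on all libraries together. Every value below is therefore 1 pooled value with no replicate error, no comparison of the genotypes was made, and whether WT libraries deposited earlier also entered the pool is not shown by the files.

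Sirtuins are NAD-dependent enzymes that remove acetyl and other acyl groups from lysines, splitting 1 NAD for each group removed. In the nucleus and cytosol, they work against lysine acetyltransferases, which use the acetyl-CoA that ACLY makes from citrate. SIRT1, SIRT6 and SIRT7 act in the nucleus, SIRT2 mainly in the cytosol, and SIRT3, SIRT4 and SIRT5 in mitochondria, and in tubule cells, which depend on mitochondrial oxidation, the mitochondrial members act on many enzymes of fuel use.

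The DNA just before the canonical start of each gene (the first base of its Ensembl canonical transcript) is shown because it lies inside the promoter interval of each member and differs in composition between them. The highest summit itself lay upstream of the start at Sirt1, Sirt2 and Sirt3 and downstream of it at the other 4, and that of Sirt2 lay just outside the bases shown. The stretches were read 5′ to 3′ on the strand of the gene from GRCm39 and end at the last base before the start, or at base 4 before it for Sirt7. Untranslated exons of neighbouring transcripts were left out, which shortened those of Sirt2, Sirt3 and Sirt7, and none is shown for Sirt6, whose upstream bases are untranslated exon of Ankrd24. The coordinates are chr10:63174872-63175021 on the minus strand for Sirt1, chr7:28466066-28466159 on the plus strand for Sirt2, chr7:140461796-140461853 on the minus strand for Sirt3, chr5:115622785-115622934 on the minus strand for Sirt4, chr13:43518706-43518855 on the plus strand for Sirt5 and chr11:120515844-120515941 on the minus strand for Sirt7. Capitals mark matches, on either strand, to a GC box (GGGCGG, bound by SP and KLF factors), an E-box (CACGTG), an ETS site (CCGGAAG) or an NRF1 site (GCGCATGC).
Sirt1: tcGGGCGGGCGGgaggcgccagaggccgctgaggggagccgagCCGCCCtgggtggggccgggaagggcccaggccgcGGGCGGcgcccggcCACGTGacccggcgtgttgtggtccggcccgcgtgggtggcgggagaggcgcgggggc
Sirt2: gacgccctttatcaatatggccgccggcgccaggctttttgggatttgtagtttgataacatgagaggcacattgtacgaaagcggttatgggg
Sirt3: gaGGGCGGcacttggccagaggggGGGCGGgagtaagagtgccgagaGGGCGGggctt
Sirt4: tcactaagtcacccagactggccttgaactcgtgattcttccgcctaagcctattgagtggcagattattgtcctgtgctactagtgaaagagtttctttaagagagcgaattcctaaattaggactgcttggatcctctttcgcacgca
Sirt5: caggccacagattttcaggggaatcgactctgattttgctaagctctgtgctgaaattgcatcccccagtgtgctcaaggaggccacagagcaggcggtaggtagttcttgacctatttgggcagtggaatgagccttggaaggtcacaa
Sirt7: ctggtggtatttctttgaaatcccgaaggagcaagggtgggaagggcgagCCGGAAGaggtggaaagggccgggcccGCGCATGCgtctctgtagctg
The stretch of Sirt1 held 4 GC boxes and 1 E-box, that of Sirt3 held 3 GC boxes in 58 bases, and that of Sirt7 held an ETS site and an NRF1 site. Those of Sirt2, Sirt4 and Sirt5 held none of these letters.

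All 7 sirtuin genes had an interval over their canonical start, and 5 of 7 reached a promoter fold enrichment of at least 20. Fold enrichment here is the number of extended read ends piled up at the summit over the uniform background of the pool, each increased by 1, and a promoter interval is the interval over the start or within 1 kb of it. Among all protein-coding genes, 75.8% had an interval within 1 kb of the start and 49.0% reached 20-fold. The median promoter fold enrichment was 32.1 over the sirtuin genes, 19.1 over all protein-coding genes with those lacking an interval set to 0, and 29.9 over the genes that had a promoter interval. Set beside genes with an open promoter, the sirtuins thus lay around the middle, with Sirt2 and Sirt1 above it and Sirt5 and Sirt7 below. The list has 7 members and no test was made on it.

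From high to low, the promoter fold enrichment was 54.5 at Sirt2, 51.0 at Sirt1, 33.5 at Sirt6, 32.1 at Sirt3, 27.6 at Sirt4, 18.9 at Sirt5 and 16.1 at Sirt7. The highest was 3.39 times the lowest. Exact Poisson intervals at 95% on the pileup cover counting error only and leave out variation between libraries. They treat read ends as independent, though both ends of a fragment are not, so they may be too narrow. With only neighbours in the order compared, these intervals gave 3 steps. Sirt2 and Sirt1 overlapped, Sirt6, Sirt3 and Sirt4 overlapped from neighbour to neighbour, and Sirt5 and Sirt7 overlapped, while Sirt1 and Sirt6, and Sirt4 and Sirt5, did not. Within the middle step, Sirt6 (lower bound 30.6) and Sirt4 (upper bound 30.3) did not overlap either. Among all protein-coding genes, Sirt6 lay above 66.1%, Sirt3 above 64.6%, Sirt4 above 59.2%, Sirt5 above 49.7% and Sirt7 above 47.0%. The steps did not follow the compartment of the enzyme, since the nuclear members Sirt1, Sirt6 and Sirt7 fell into 3 different steps.

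**Figure D1:**
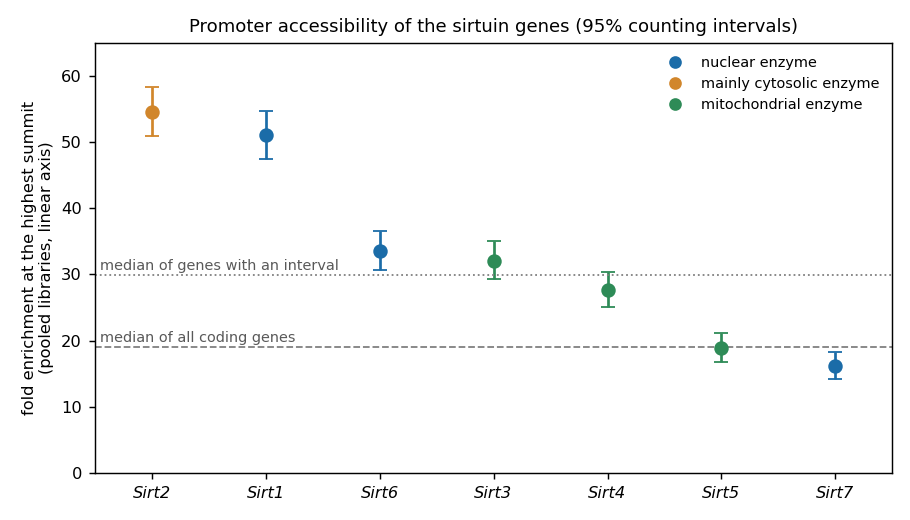
Fold enrichment at the highest summit of the promoter interval (linear axis) for each sirtuin gene in the pooled call, with exact Poisson 95% counting intervals and colours for the compartment of the enzyme. Sirt2 (54.5) and Sirt1 (51.0) lie above the others, and Sirt5 (18.9) and Sirt7 (16.1) lie lowest, below the median of 19.1 over all coding genes (dashed line). Sirt4 (27.6), Sirt5 and Sirt7 lie below the median of 29.9 over genes with a promoter interval (dotted line).

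Sirt1 encodes the nuclear deacetylase of FOXO factors, p53 and PGC-1α. Its promoter interval, chr10:63171864-63176174, was 4311 bp wide with 9 summits, and the highest, 18 bp upstream of the start, had a pileup of 778 read ends and a fold enrichment of 51.0 (47.5 to 54.7), above 83.3% of protein-coding genes. A second summit in intron 1, 561 bp downstream, reached 25.7 (23.3 to 28.4), or 50.4% of the first. The start of a noncoding transcript on the other strand, Gm66635, lies 78 bp upstream in the same interval.

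Sirt1 had 11 intervals, but the gene record covers 62903 bp only because 1 coding transcript, ENSMUST00000120239.9, starts 42612 bp upstream of the canonical start. An interval over that far start, chr10:63215836-63219854, had a fold enrichment of 48.2 (44.8 to 51.8), which overlaps the counting interval of the canonical promoter. It also holds the start of the gene record of Dnajc12, a J-domain co-chaperone, 367 bp from the summit, and of the noncoding Gm66647, so its signal cannot be assigned to Sirt1. Next to it, chr10:63212733-63215282 reached 8.90 (7.48 to 10.5). The 8 other intervals outside the promoter lay between 1.70 and 3.67, and with the canonical transcript in place of the gene record 5 intervals were left.

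Sirt6 and Sirt7, the other nuclear members, had wider and lower promoter intervals. SIRT6 deacetylates histone H3 and takes part in DNA repair and glucose control. Its promoter interval, chr10:81459389-81466429, was 7041 bp wide with 23 summits, but a single one stood out, with a fold enrichment of 33.5 (30.6 to 36.5) and a pileup of 510, 147 bp downstream of the start in the untranslated part of exon 1. The next highest summit reached 6.74, or 20.2% of it. Ankrd24, an ankyrin repeat gene, starts on the other strand 105 bp inside Sirt6, so the first exons overlap head to head and the summit lies 42 bp before the Ankrd24 start.

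SIRT7 is a histone H3 deacetylase of the nucleolus that promotes ribosomal RNA synthesis. Its promoter interval, chr11:120510745-120519142, was the widest of the family at 8398 bp and wider than 92.4% of promoter intervals, and it had 27 summits. No single summit dominated it. The highest, in intron 3 and 528 bp downstream of the start, had a fold enrichment of 16.1 (14.2 to 18.2), and the next, 24 bp downstream, reached 15.6 (13.7 to 17.8), 97.2% of the first. A summit in coding exon 2, 255 bp downstream, reached 11.3, and 2 upstream ones, at 252 bp and 348 bp, reached 7.53 and 7.79. The microRNA gene Mir6936 starts on the same strand 138 bp downstream of the Sirt7 start, inside the interval.

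The strongest interval overlapping the Sirt7 stretch was not at its promoter. It was chr11:120505700-120510322, with a fold enrichment of 32.9 (30.1 to 35.9), and only 24.4% of its length lay inside the Sirt7 gene. Its summit lies 35 bp inside the start of Pcyt2, an enzyme of phosphatidylethanolamine synthesis that starts just past the 3′ end of Sirt7. With both intervals, 95.7% of the 9870 bp taken for Sirt7 was called open, and 80.7% of the 11370 bp of Sirt6, against a median of 16.7% over all protein-coding genes. That median is over genes of any length, so the comparison was not matched for length.

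Sirt2, whose product deacetylates tubulin and also ACLY itself, had the strongest promoter of the family. The interval chr7:28464198-28467843 was 3646 bp wide and rose to 1 sharp summit, 115 bp upstream of the start, with a pileup of 832, a fold enrichment of 54.5 (50.9 to 58.4) and a level above 85.8% of protein-coding genes. None of the other 6 summits passed 5.17, or 9.48% of the first. Nfkbib, which encodes the NF-κB inhibitor IκBβ, starts 95 bp upstream of Sirt2 on the other strand, so the summit lies 20 bp inside Nfkbib and the same summit lies beside both starts. The noncoding Gm71901 starts 432 bp upstream.

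Sirt2 also had the most intervals, 18 in 24931 bp. This is 7.22 per 10 kb, above 98.9% of protein-coding genes, whose median was 1.86. Apart from the promoter, 1 interval passed 5-fold, chr7:28479041-28481165 in intron 7, with a fold enrichment of 6.87 (5.63 to 8.32) and 13569 bp from the start, and it covers the start of the noncoding Gm19897. The 16 remaining intervals were weak, from 1.70 to 2.88. A q under 1e-05 was reached by 8 of the 18, beside 54.9% of all intervals in the list. Most of the 18 were thus weak, and the rank of Sirt2 by density at a stricter limit was not computed.

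Sirt3 encodes the main mitochondrial deacetylase, which acts on SOD2, IDH2 and enzymes of fat oxidation. Its promoter interval, chr7:140460075-140462687, was 2613 bp wide and had a pair of nearly equal summits. One lay 20 bp upstream of the canonical start and reached 32.1 (29.3 to 35.0), and the other lay 462 bp upstream and reached 31.2 (28.5 to 34.2), which is 97.3% of the first. Each lay beside a start of coding Sirt3 transcripts, since 6 coding transcripts begin at the canonical start and 6 others begin 453 bp upstream, 9 bp from the second summit. Psmd13, a proteasome lid subunit, starts between them on the other strand, 86 bp upstream of the canonical start. The 9 other intervals of Sirt3 were all weak, from 1.70 to 3.08.

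SIRT4 is a mitochondrial lipoamidase and ADP-ribosyltransferase that restrains pyruvate dehydrogenase and glutamate dehydrogenase. The Sirt4 promoter interval, chr5:115621913-115625808, was 3896 bp wide with 12 summits, and its highest reached 27.6 (25.0 to 30.3), 289 bp downstream of the canonical start in the untranslated part of exon 1. The next highest, 1252 bp upstream, reached 6.42. A noncoding transcript on the other strand, Gm57298, starts 283 bp downstream, which is 6 bp from the highest summit, and the nearest Sirt4 transcript start, of a transcript marked for nonsense-mediated decay, is 33 bp from it. Outside the promoter, 4 intervals lay between 1.70 and 4.19, the highest of them in a coding exon 2030 bp from the start.

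Sirt5 encodes the mitochondrial desuccinylase, demalonylase and deglutarylase. It had the plainest locus of the 7, with 3 intervals in 34632 bp, or 0.866 per 10 kb, and 5.75% of that stretch called open. The promoter interval, chr13:43518386-43519786, was 1401 bp wide, narrower than 81.5% of promoter intervals, with 2 summits. Its highest, 116 bp downstream of the start, had a pileup of 287 and a fold enrichment of 18.9 (16.7 to 21.2), and the other reached 1.90. Of the coding Sirt5 transcripts, 8 begin at the canonical start, 6 begin 161 bp downstream and 6 begin 246 bp downstream. The summit lies between the canonical start and that at 161 bp. No other gene started within 1 kb of it, which was so for no other sirtuin. The 2 remaining intervals, past the end of the canonical transcript, had fold enrichments of 1.83 and 2.23.

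**Figure D2:**
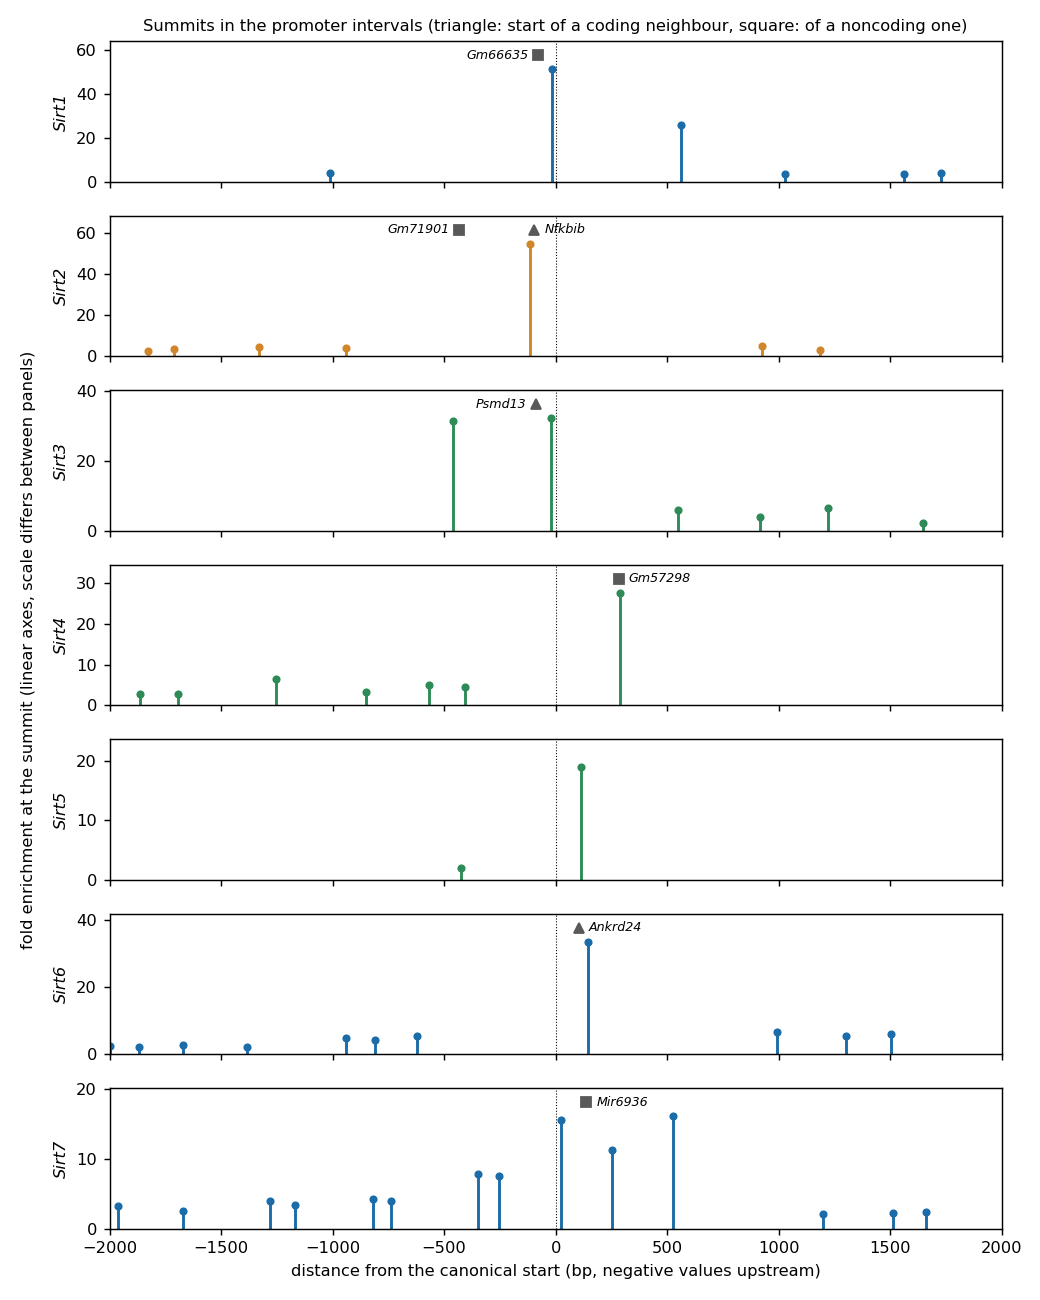
Fold enrichment (vertical, linear axes with a scale for each panel) of the summits within 2 kb of the canonical start, against distance from the start in bp, with triangles for starts of coding neighbours and squares for noncoding ones. Sirt2 shows 1 sharp summit beside Nfkbib, Sirt3 a pair of nearly equal summits (32.1 and 31.2), and Sirt7 several of similar height (16.1, 15.6 and 11.3).

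Most intervals outside the promoters were weak. Of the 46 such intervals, 42 were under 5-fold, with a range of 1.70 to 4.19 and a median of 2.10, and the lowest value, at a pileup of 25, is also the lowest in the whole list. By the canonical transcripts, 27 of the 46 lay in introns, 5 in coding exons, 9 upstream, most of them at Sirt1 and within or beside its long transcript, and 5 past the end. Counting the promoters too, 11 of the 53 intervals (20.8%) were at least 5-fold, against 24.5% of the whole list, and 24 of 53 (45.3%) had a q under 1e-05, against 54.9%. Both shares were near those of the whole list, and nothing about the members was read from them. Of the 4 strong intervals outside promoters, 2 held the start of another coding gene record, Dnajc12 and Pcyt2.

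**Figure D3:**
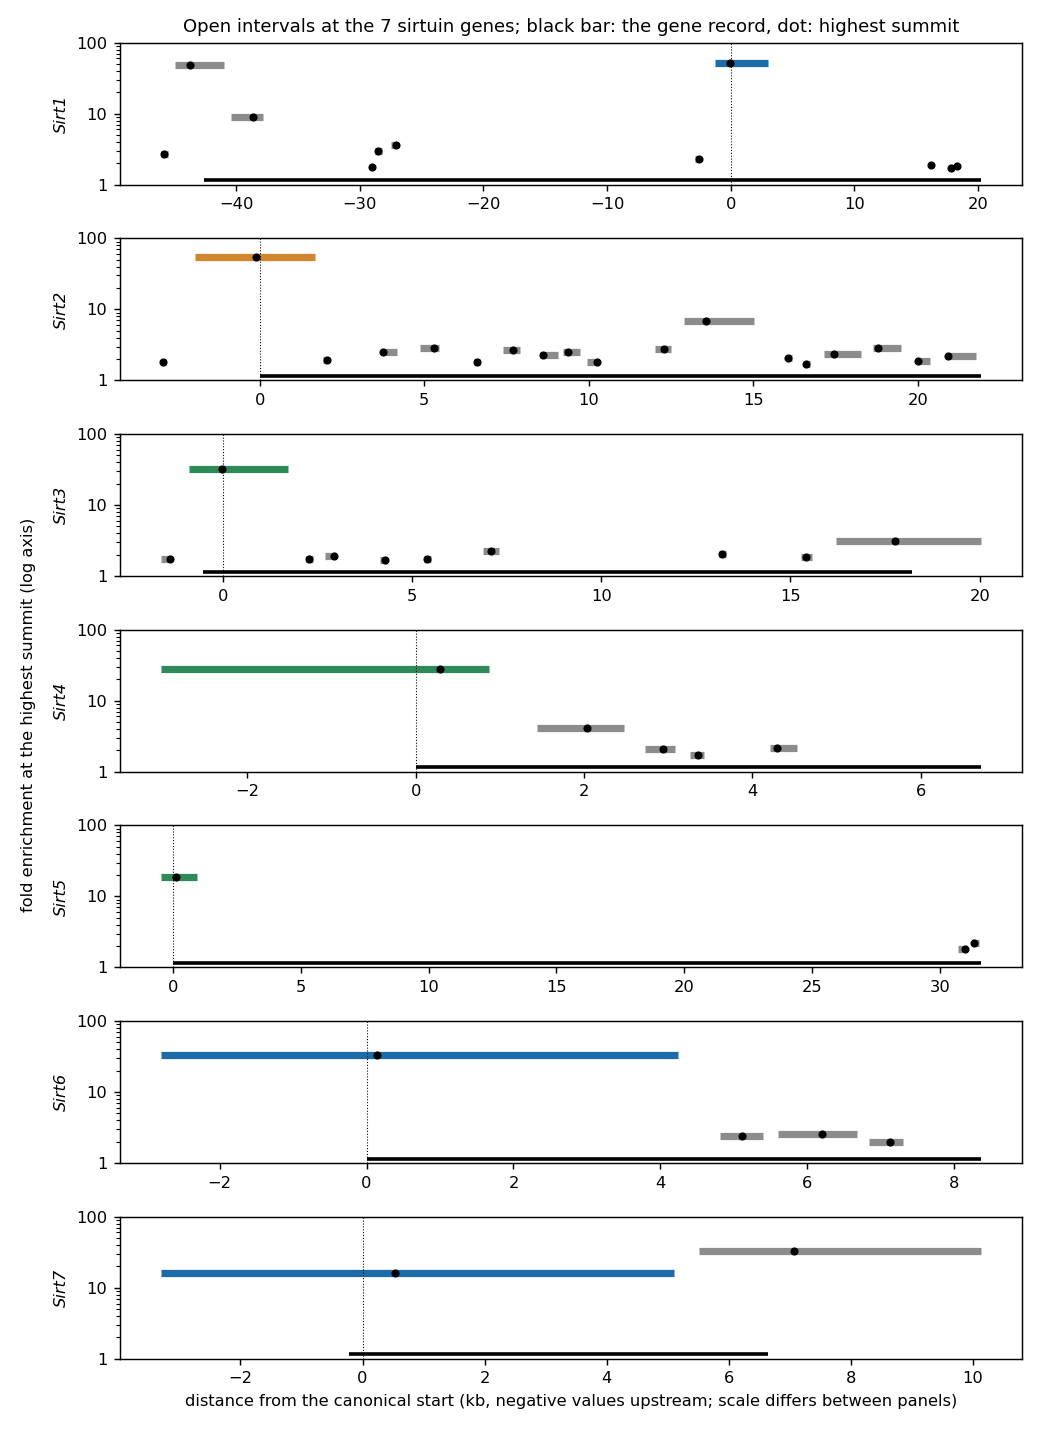
Every interval at the 7 genes, placed by distance from the canonical start in kb and by the fold enrichment of its highest summit (log axis), with the promoter interval in colour and the others in grey. Only Sirt1 (48.2 and 8.90), Sirt2 (6.87) and Sirt7 (32.9) have a grey interval above 5-fold. Sirt5 has no grey interval between its promoter and the end of its canonical transcript.

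The 7 promoters differed in base composition. In the window from 250 bases before to 50 after the canonical start, the ratio of observed to expected CpG was 1.08 at Sirt1, 0.929 at Sirt7, 0.803 at Sirt2, 0.787 at Sirt3, 0.612 at Sirt4, 0.395 at Sirt5 and 0.36 at Sirt6, beside a median of 0.517 over all coding promoters. With a ratio of at least 0.6 as CpG-rich, 5 of 7 sirtuin promoters were CpG-rich, as were 43.3% of all promoters. Of all CpG-rich promoters 97.9% had an interval within 1 kb, against 58.9% of the others. With promoters lacking an interval set to 0, the median fold enrichment was 38.4 over all CpG-rich promoters and 2.82 over all others. Sirt5 and Sirt6 were therefore among CpG-poor windows with an open promoter, and Sirt7, with the second highest ratio, had a level above only 15.5% of CpG-rich promoters.

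The differences narrowed when the window was centred on the highest summit instead. In 300 bases around it the ratio was higher than at the start for Sirt4 (0.748), Sirt5 (0.772) and Sirt6 (0.863) and lower for Sirt7 (0.765), which no longer stood out. The 7 members then lay between 0.748 and 1.07, beside a median of 0.766 over all coding genes with a promoter interval. Sirt4, Sirt5 and Sirt6 are the genes whose summit lay in the untranslated part of exon 1 over 100 bp downstream of the annotated start. A retained-intron transcript of Sirt5 starts exactly at the summit, and a transcript of Sirt6 marked for nonsense-mediated decay starts 2 bp from it.

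Sequence motifs in the 300-base windows were searched on both strands. The GC box was found in 4 of 7 (Sirt1, Sirt2, Sirt3 and Sirt7) and in 42.5% of all coding promoters, and the CCAAT box in 3 of 7 (Sirt2, Sirt3 and Sirt5) and in 39.9%. Single members held the E-box (Sirt1, 7.82% of all promoters), the ETS site (Sirt7, 10.3%) and the NRF1 site (Sirt7, 3.69%). No sirtuin window held the letters TGACGTCA of the cAMP response element (2.45% of all), TATAAA (13.2%), the YY1 site AAGATGGC (2.47%), the forkhead site TGTTTAC (3.15%), the ERR site TCAAGGTCA (0.473%), the HNF4 site CAAAGTCCA (0.450%) or the HNF1 site GTTAATNAT (0.809%). A match describes letters only, and with shares of this size among all promoters nothing about the family was read from them.

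Some sirtuin promoters were shared with a neighbouring coding gene. Sirt2 and Sirt3 each had a coding gene starting within 1 kb upstream on the other strand, as did 5.04% of all coding promoters, while Sirt6 overlapped one, a case for which no share over all genes was computed. Coding promoters of that divergent kind had a median fold enrichment of 47.5, against 16.8 for the rest. Accessibility of such a site belongs to both genes, so the values of Sirt2, Sirt3 and Sirt6 cannot be split between them and Nfkbib, Psmd13 and Ankrd24.

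The genes around the sirtuins in NAD and acetyl-lysine metabolism were measured in the same way. Over all protein-coding genes, 75.8% had such an interval, 49.0% reached 20-fold and the median was 19.1. The list of NAD synthesis and salvage lay near the last 2 of these values. Of 20 genes of NAD synthesis and salvage, 19 had a promoter interval and 10 reached 20-fold, with a median of 20.8. Nadk2, the mitochondrial NAD kinase, was highest at 77.3, and Tdo2, the liver enzyme that opens the tryptophan ring, had no interval. Of 6 other NAD consumers, all had an interval and 3 reached 20-fold, from 10.9 at Bst1, an ADP-ribosyl cyclase, to 90.3 at Parp2, a poly(ADP-ribose) polymerase of DNA repair. Both sirtuin regulators were open, Ccar2, an inhibitor of SIRT1, at 43.9 and Rps19bp1, an activator of it, at 28.2.

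Genes for known sirtuin substrates had the highest median of these lists, 47.6. The counts below stand beside 75.8% of all protein-coding genes with an interval and 49.0% at 20-fold. Of 14 such genes, 13 had an interval and 12 reached 20-fold, with Glud1, the glutamate dehydrogenase that SIRT4 modifies, at 85.6 and Cps1, the urea cycle enzyme that SIRT5 acts on, without an interval. All 11 zinc-dependent deacetylases were open at the start and 9 reached 20-fold, with a median of 40.8, from 7.27 at Hdac9 to 74.0 at Hdac4. All 10 lysine acetyltransferases had an interval and 8 reached 20-fold, with a median of 36.2, from 1.96 at Hat1 to 95.1 at Kat6b. The sirtuin median of 32.1 was below those of the other deacetylases, the acetyltransferases and the substrates, and above those of NAD synthesis and the other NAD consumers, but the ranges of all lists but that of the 2 regulators reached below 20 and no test was made between them.

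**Figure D4:**
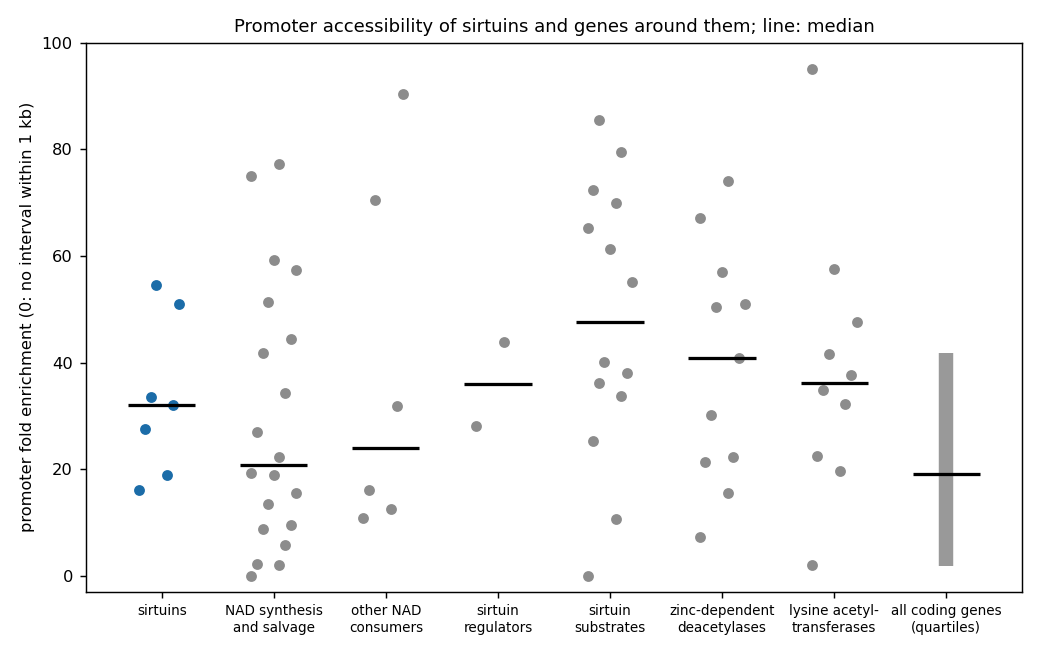
Promoter fold enrichment (linear axis, 0 where no interval lay within 1 kb) of each gene in the sirtuin list (blue) and in 6 lists around it (grey), with the median of each as a line and the quartiles of all coding genes at the right. The sirtuins lie between 16.1 and 54.5, inside the range of the larger lists.

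The labelled tissue was checked against marker genes. Of all protein-coding genes, 75.8% had an interval within 1 kb of the start, and their median promoter fold enrichment was 19.1. The median of the 4 proximal tubule markers, 15.7, was below both. Both endothelial markers and 4 of 5 markers of other organs also had an interval, so an interval alone does not mark a tissue. All 4 proximal tubule markers had a promoter interval, from 7.40 at Slc5a2 to 33.1 at Lrp2, as had all 3 of the thick limb and distal tubule, from 8.38 at Slc12a3 to 20.8 at Umod, and both of the collecting duct, Scnn1g at 28.4 and Aqp2 at 4.19. The podocyte marker Nphs1 was at 3.14, endothelial markers at 2.03 (Pecam1) and 8.64 (Kdr), the immune marker Ptprc at 1.90 with Cd3e lacking an interval, and markers of other organs at up to 3.40 (Ins2), with none at Myh6. The intervals of Pecam1 and Ins2 did not cover the start and lay 265 bp and 833 bp from it. In a pool of whole cortex, a site open in few cells and a site weakly open in many cannot be told apart, and the share of each cell type in the sirtuin values was not tested.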

How the data were processed

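Bulk ATAC-seq of kidney cortex nuclei was examined at Sirt1 to Sirt7. Per their methods, reads were trimmed (fastp) and mapped to mm39 by the authors with Bowtie2 2.3.4.3, who kept unique reads without duplicates, called peaks with MACS3 3.0.0 (extension 200 bases, shift 100, q limit 0.05, summits called) and removed blacklisted regions with BEDTools 2.29.1. The deposited peak list holds, for each summit, the fold enrichment (a linear ratio, used here as the level), the −log10 q, a score that the authors' caller derived from it, and the summit's offset in bases. A deposited list of unfiltered summits gives −log10 q as well and served only as a check. By its peak names, the call covers all libraries together, and the depth of single libraries is unknown.

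Rows were grouped into distinct intervals with the values of their highest summit by q. For 100% of 727147 summits under 20-fold, the fold enrichment was a whole multiple of 1 step (within 0.05 step) and the caller's p followed from the pileup (within 1%), which gave the pileup at each summit over a uniform background of 14.3 and its exact Poisson 95% interval. Genes, starts and exons came from GENCODE M39, sequence from GRCm39. The reference promoter table given with the data is on GRCm38 and was not used. Described in full were all 7 members with their strongest and promoter intervals and others of at least 5-fold, and, of each other list, the highest and lowest gene and those with no interval. Of the marker genes, 1 is not reported here. The members and lists were chosen with earlier results of these data known. Scripts were tested on simulated data. The tools were Python 3.11.15, pysam 0.24.0, scipy 1.17.1, matplotlib 3.10.9, pandas 2.3.3 and numpy 2.4.6.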

Additional observations from a re-analysis of the deposited data

How the results depend on the processing

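The 53 intervals at the sirtuin genes became 39 with q under 0.01, 24 with q under 1e-05, 11 at 5-fold or more, 10 among the strongest 50000 intervals and 87 with 10 kb on either side, and they held 179 summits. For the gene body alone the count was 50, and 51 with at least 50% of an interval inside. 2 further alternatives were chosen after seeing the data. The canonical transcript in place of the gene record gave 44. Leaving out intervals over the start of another coding gene, but not over the member's own start, gave 51. Promoter intervals shared with Nfkbib, Psmd13 and Ankrd24 were thus kept. The median promoter fold enrichment of 32.1 fell to 10.4 as a mean over all summits of an interval, since that mean includes the weak summits, and was the same 32.1 under the 4 other choices of summit or start. All 7 genes had an interval within 1 kb of the start under each of the 4 alternatives, and the 5 genes at 20-fold became 7 at 10-fold and 2 at 40-fold, beside 59.0% and 26.8% of all coding genes. Of 70 interval counts of single genes under these alternatives 34 moved by over 1.5 times, and of 35 promoter values 7 left their counting interval, all of them means over summits. No paired analysis was possible because the authors' single call has no column for a library, and for the same reason no replicate could be left out and WT was not compared with Acly cKO.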

Other observations

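Within the list of NAD synthesis and salvage, the following genes were chosen after their values were seen, and no test was made. Nampt, the rate-limiting enzyme of NAD salvage from nicotinamide, had a promoter fold enrichment of 74.9, and Nmrk1, the nicotinamide riboside kinase of most tissues, had 59.3. Its muscle counterpart Nmrk2 had 2.16. Among the enzymes that join nicotinamide mononucleotide to ATP, the nuclear Nmnat1 was at 41.8 and the mitochondrial Nmnat3 at 34.4, while the neuronal Nmnat2 was at 2.10. Slc25a51, the carrier that brings NAD into mitochondria, was at 51.4. On the kynurenine route from tryptophan, the list gave no interval at Tdo2, 9.49 at Ido1, 8.71 at Ido2, 19.3 at Afmid, 13.4 at Kmo, 15.6 at Kynu and 18.9 at Haao, and Qprt, which joins that route to NAD, was at 22.3. The intervals of Ido1 and Nmnat2 did not cover the start and lay 981 bp and 22 bp from it.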
